A study of Mus musculus with 18 samples.

Results

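The genes described here encode the respiratory chain and ATP synthase of mitochondria, as far as these proteins are made from nuclear genes. They were chosen by symbol: a gene was taken when an array probe named it alone and its symbol began with Ndufa, Ndufb, Ndufc, Ndufs, Ndufv, Uqcr, Cox4, Cox5, Cox6, Cox7, Cox8 or Atp5, or was Sdha, Sdhb, Sdhc or Sdhd. The rule gave 89 of the 22180 genes that a probe named alone. Where a gene had several probes, the probe with the highest mean over all 18 arrays stood for it, which set aside a second probe for 9 genes. The 89 genes comprised 33 with the symbol of a complex I subunit, 4 of complex II, 7 of complex III, 10 of complex IV and 17 of ATP synthase, which makes 71 subunit genes. The other 18 were 8 assembly factors of complex I (Ndufaf1 to Ndufaf8), 8 isoforms known from tissues other than liver or from low oxygen, and 2 pseudogenes. All 89 were found in the RefSeq gene table under the same symbol. The mean signal of 80 of them lay above the median of all probes.

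Liver RNA of male C57BL6 mice was hybridised to 18 gene-level expression arrays, 3 for each of 6 groups, which the labels call biological replicates, so p-values measure the spread between these samples. The mice began at 6 weeks of age, ate their diet freely for 12 weeks and were killed at 18 weeks. The low-fat groups ate a diet with 10% of energy from fat: low-fat control, low-fat PFOS and low-fat PFNA. The high-fat groups ate 45% of energy from fat: high-fat control, high-fat PFOS and high-fat PFNA. In the exposed groups the diet contained the compound. PFOS, a sulfonic acid, and PFNA, a carboxylic acid, are persistent perfluorinated chemicals. No source used here gives a dose, so a difference between them is a difference between these 2 diets.

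The respiratory chain passes electrons from NADH (complex I) and succinate (complex II) through coenzyme Q, complex III and cytochrome c to oxygen at complex IV. Complexes I, III and IV pump protons, and ATP synthase uses the gradient to make ATP; hepatocytes spend it on gluconeogenesis, urea synthesis and lipid metabolism. Most subunits are nuclear-encoded and must be built together with a core encoded by mitochondrial DNA, and their genes are known targets of NRF1, of GABPA and of ERRA with its coactivator PGC-1.

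The promoters of the genes were searched for the motifs of these regulators, and 4 are shown: 2 with a match, of which Ndufa8 was called in a comparison, and those of the Cox6b pair, since Cox6b2 had the largest difference and Cox6b1 is its general form. A promoter of 250 bases upstream of the start (RefSeq, GRCm38.p6) was given for 72 of the 89 genes. On either strand the NRF1 motif was found in 13 of their 77 promoters, or 16.9%, against 3.74% of all 32851 promoters of the same length. The GABPA motif CCGGAAGT was present in 3.9% against 2.88%, the ERRA motif TCAAGGTCA in 1.3% (the Atp5g3 promoter) against 0.387%, and the PPARA element in 0 of 77 against 0.0335%. Capitals mark the match to the NRF1 motif in the Ndufa8 promoter (chr2:36049339-36049588, minus strand) and to the ERRA motif in the Atp5g3 promoter (chr2:73911327-73911576, minus strand). The promoters of Cox6b1 (chr7:30626115-30626364, minus strand) and Cox6b2 (chr7:4753095-4753344, minus strand), the general and the testis isoform of 1 complex IV subunit, held none of the 4 motifs. The sequences are written 5′ to 3′ and end at the base before the start.
Ndufa8: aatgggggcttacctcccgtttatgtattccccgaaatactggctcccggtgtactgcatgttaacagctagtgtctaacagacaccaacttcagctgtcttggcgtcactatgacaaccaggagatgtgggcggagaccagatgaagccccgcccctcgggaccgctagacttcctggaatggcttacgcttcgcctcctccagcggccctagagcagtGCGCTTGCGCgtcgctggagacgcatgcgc
Atp5g3: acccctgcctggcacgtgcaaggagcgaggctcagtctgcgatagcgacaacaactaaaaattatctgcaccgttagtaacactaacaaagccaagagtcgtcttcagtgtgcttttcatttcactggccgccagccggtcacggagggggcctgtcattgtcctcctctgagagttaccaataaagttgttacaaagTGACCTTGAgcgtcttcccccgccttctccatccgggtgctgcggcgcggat
Cox6b1: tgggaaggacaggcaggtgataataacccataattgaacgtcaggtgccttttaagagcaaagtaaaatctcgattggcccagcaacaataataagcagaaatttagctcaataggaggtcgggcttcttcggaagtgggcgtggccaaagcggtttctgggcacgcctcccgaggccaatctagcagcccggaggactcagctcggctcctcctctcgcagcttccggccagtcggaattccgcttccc
Cox6b2: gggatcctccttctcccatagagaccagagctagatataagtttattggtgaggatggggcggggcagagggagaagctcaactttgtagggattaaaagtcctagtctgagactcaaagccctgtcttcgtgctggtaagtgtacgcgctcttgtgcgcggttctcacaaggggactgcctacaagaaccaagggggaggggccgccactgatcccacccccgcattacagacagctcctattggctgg
Between high-fat PFOS and high-fat control the median log2 difference was 0.21 for the 12 genes with the NRF1 motif and 0.24 for the 60 without it. These values are a description, and a match is not evidence of binding.

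Arrays gave log2 signal, and group differences were tested with limma in 1 fit of all 18 arrays, with p-values adjusted by Benjamini-Hochberg over all 34472 probes. A gene is called changed at an adjusted p under 0.05. Array medians ranged from 4.43 to 4.59, pairs of arrays correlated between 0.9749 and 0.9913, and the number of arrays limits the precision. Albumin, the main hepatocyte product, had a log2 signal of 13.81 to 13.95 on all 18 arrays. Replicate 3 of low-fat PFOS and replicate 3 of high-fat PFNA stood apart from their groups: on the first principal component of all probes, which held 17.9% of the variance, they scored 32.9 and 32.4, the 3 high-fat PFOS arrays scored 27.8, 34.9 and 38.6, and each of the other 13 arrays scored between -22.9 and -8.08. No label sets them apart, and whether the labels of these 2 arrays are right could not be checked; they were kept in their labelled groups, so the low-fat PFOS and high-fat PFNA means hold only if the labels do. Results that rest on them are given with and without them, and since they were set aside for their values, the values without them are a description. The 4 comparisons with a control share that control between PFOS and PFNA, so their values stand side by side here and are not independent.

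In high-fat PFOS livers most genes of the 5 complexes had a higher signal than in high-fat controls, by a modest amount. Of the 71 subunit genes, 66 had a higher mean, against 47.9% of all probes, and in 47 all 3 PFOS arrays lay above all 3 controls, while in 0 they lay below. Among all probes 9.71% had the 3 PFOS arrays above the controls and 8.68% below; among probes brighter than the median 14.3% had them above. The median log2 difference was 0.26 over the 71 subunits and -0.01 over all probes. By complex the median log2 difference was 0.31 for complex I, 0.20 for complex II, 0.26 for complex III, 0.29 for complex IV and 0.23 for ATP synthase. Arrays did not overlap for 21 of 33 genes of complex I, 2 of 4 of complex II, 6 of 7 of complex III, 7 of 10 of complex IV and 11 of 17 of ATP synthase. Few of these differences reached a call after adjustment over all 34472 probes. Of the 89 genes 2 were called, both higher (Cox6b2 and Atp5mpl), where 1.02% of all probes were called in either direction and 0.632% were called higher. At an unadjusted p under 0.05, 36 of the 89 were higher and 1 was lower, against 7.12% and 6.42% of all probes. In whole liver fewer cells of a type and less RNA per cell cannot be told apart; the summed log2 signal of 7 hepatocyte markers was 15.59 to 15.61 in high-fat controls and 15.42 to 15.53 in high-fat PFOS, slightly lower, and its part in these differences was not tested.

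**Figure D1:**
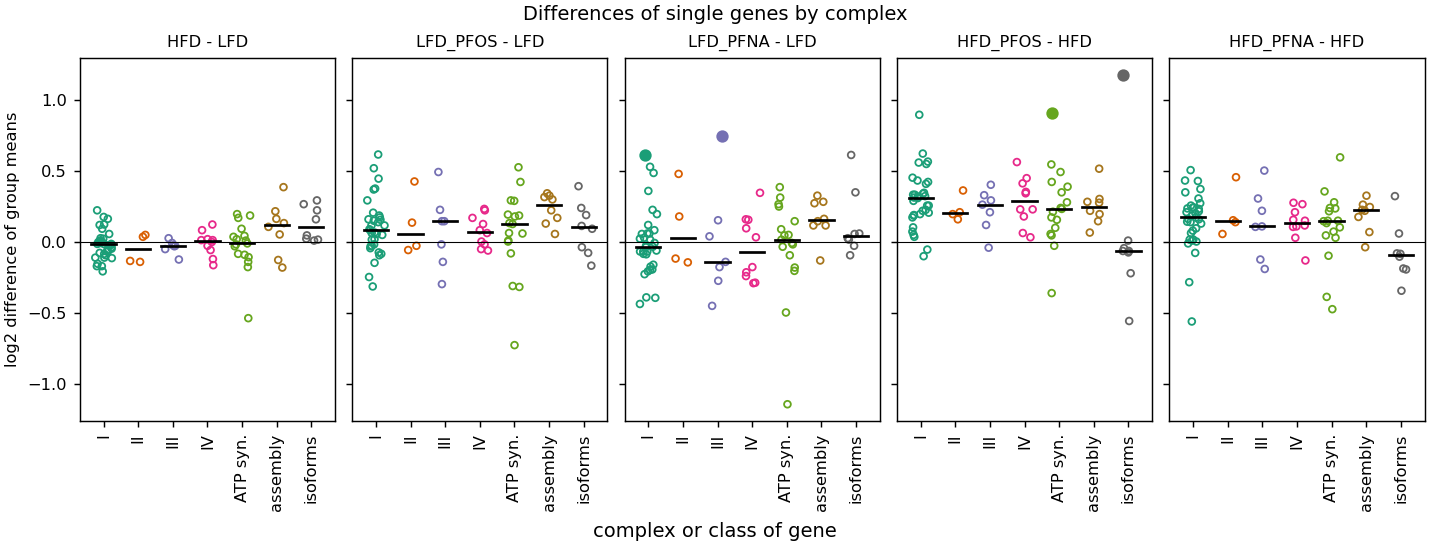
Each circle is the log2 difference of group means for 1 gene (vertical axis) by complex or class (horizontal axis), in the 4 comparisons with the diet control and for diet alone; the 2 pseudogenes are left out. Bars are medians and filled circles are called genes. In high-fat PFOS against high-fat control the bars of the 5 complexes lie between 0.20 and 0.31, while for diet alone they lie between -0.05 and 0.01.

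Complex I, the NADH dehydrogenase, held the most genes. Ndufab1, the mitochondrial acyl carrier protein that is also a complex I subunit, had the largest difference of this complex. Its log2 signal was 6.15, 6.58 and 6.55 in high-fat controls and 7.13, 7.10 and 7.74 in high-fat PFOS. The groups did not overlap, and the log2 difference was 0.90 (SE 0.286), with an adjusted p of 0.148 in limma. Ndufs4, an accessory subunit needed for a stable complex, read 8.0, 7.85 and 7.91 in controls and 8.49, 8.48 and 8.49 with PFOS. The 3 PFOS arrays were nearly equal and lay above every control, at a log2 difference of 0.57 (SE 0.158, adjusted p = 0.0908). Ndufa7, an accessory subunit, came closest to a call in this complex: 7.64, 7.60 and 7.57 in controls and 8.19, 8.13 and 8.17 with PFOS, a log2 difference of 0.56 (SE 0.134, adjusted p = 0.0532). The NADH-binding core subunit Ndufv1 overlapped its controls, with a log2 difference of 0.17 (SE 0.115). Of the iron-sulfur core subunits, Ndufs1 had a log2 difference of 0.41 and Ndufs8 one of 0.33, both without overlap. The mean was lower with PFOS for 2 genes of the complex, Ndufs5 (log2 difference -0.10) and Ndufa1 (-0.05), both with overlapping arrays. Ndufa4, named as a complex I subunit but placed in complex IV by later work, had a log2 difference of 0.32 without overlap.

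Complex II, the succinate dehydrogenase, is wholly nuclear-encoded. Sdhb, its iron-sulfur subunit, had a log2 signal of 9.06, 8.90 and 9.12 in high-fat controls and 9.39, 9.46 and 9.32 with PFOS. All PFOS arrays lay above the controls, with a log2 difference of 0.36 (SE 0.137, adjusted p = 0.234). The flavoprotein subunit Sdha (log2 difference 0.16) and the membrane anchor Sdhc (0.20) overlapped their controls, while the other anchor, Sdhd (0.21), did not. Complex III passes electrons to cytochrome c. Its core protein Uqcrc2 read 10.15, 10.08 and 10.08 in controls and 10.53, 10.48 and 10.51 with PFOS. That is a log2 difference of 0.40 (SE 0.106, adjusted p = 0.0746) between groups that lay well apart. The Rieske protein Uqcrfs1 had a log2 difference of 0.29, also without overlap. Uqcrq, a small subunit, was the 1 complex III gene with a lower mean, by a log2 difference of -0.04.

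Complex IV, cytochrome c oxidase, had positive differences for all 10 of its genes, from 0.03 (Cox6a1) to 0.56 (Cox6b1) on the log2 scale. Cox6b1, the general form of a subunit on the cytochrome c side, read 9.05, 9.03 and 9.17 in high-fat controls and 9.71, 9.62 and 9.61 with PFOS. The gap between the groups exceeded the range within either, and the log2 difference was 0.56 (SE 0.192, adjusted p = 0.178). Its paralogue Cox6b2, known as the testis form, had the largest difference of all 89 genes. It read 4.56, 4.64 and 4.58 in controls and 5.19, 6.07 and 6.06 with PFOS, so that replicate 1 was lower than the other PFOS arrays yet above every control. The difference was 1.18 on the log2 scale (SE 0.228, adjusted p = 0.0220). The control level was close to 4.476, the median of all probe means, so no fold is given for this gene. Cox7a2l, another of the 10 genes, had a log2 difference of 0.34 without overlap.

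In ATP synthase the called gene was Atp5mpl, a small membrane proteolipid of the enzyme. Its log2 signal was 8.61, 8.67 and 8.65 in high-fat controls and 9.42, 9.60 and 9.63 with PFOS. The groups were far apart relative to their spread, with a log2 difference of 0.91 (SE 0.199, adjusted p = 0.0364), or 1.87-fold. The catalytic subunits differed less: the log2 difference was 0.28 (SE 0.103) for Atp5a1, the alpha subunit, and 0.23 (SE 0.098) for Atp5b, the beta subunit, neither with overlapping arrays. Atp5pb, of the peripheral stalk, read 10.07, 9.90 and 9.96 against 10.45, 10.54 and 10.42, a log2 difference of 0.49 (SE 0.151, adjusted p = 0.129). The 3 genes for the c subunit of the rotor were not alike: the log2 difference was -0.03 for Atp5g1, 0.21 for Atp5g2 and 0.39 for Atp5g3. Atp5d, the delta subunit, had 2 probes of nearly equal mean that disagreed, with a log2 difference of -0.36 (SE 0.350) for the brighter and 0.07 (SE 0.129) for the other, so no direction is given for it.

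Neither call was stable against the choice of arrays. Leaving out any of the 6 arrays of the comparison in turn took the adjusted p of Atp5mpl to between 0.0666 and 0.123, and that of Cox6b2 to between 0.00523 and 0.0961, with only the fit without high-fat PFOS replicate 1 keeping Cox6b2. Without the 2 arrays that stood apart in the other groups, which enter this comparison only through the shared estimate of the spread, 14 of the 89 genes were called, all higher, against 2.93% of all probes in either direction. Of the 14, 12 were subunits: Ndufa7, Ndufa10, Ndufa12, Ndufab1, Ndufb3, Ndufc2 and Ndufs4 of complex I, Uqcrc2 of complex III, Cox6b1 of complex IV, and Atp5l, Atp5mpl and Atp5pb of ATP synthase. The others were Cox6b2 and the assembly factor Ndufaf7. The differences themselves do not depend on those arrays.

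**Figure D2:**
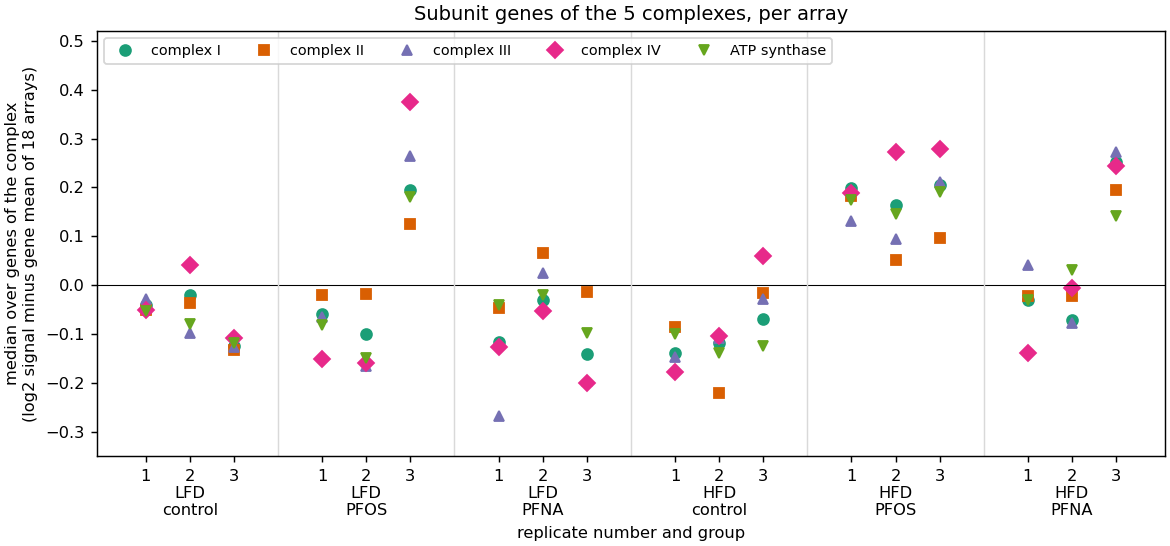
For each array (horizontal axis) the symbols give the median over the genes of a complex of the log2 signal minus the gene's mean over 18 arrays (vertical axis). The 3 high-fat PFOS arrays, low-fat PFOS replicate 3 and high-fat PFNA replicate 3 have all 5 complexes above 0.05, which holds for none of the other 13 arrays.

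Seen array by array, the exposed groups were not uniform. On each array the median over the 71 subunits was taken of the log2 signal minus the gene's mean over 18 arrays. This median was 0.18, 0.15 and 0.21 in high-fat PFOS and -0.13, -0.12 and -0.05 in high-fat controls. In low-fat PFOS it was -0.10, -0.11 and 0.22, and in high-fat PFNA -0.04, -0.05 and 0.23, so that in each of these groups replicate 3 alone had a value like those of high-fat PFOS. Low-fat PFNA, at -0.11, -0.02 and -0.11, and low-fat controls, at -0.04, -0.02 and -0.12, had no such array. Counted by gene, 55, 52 and 59 of 71 subunits lay above all 3 diet controls in the high-fat PFOS arrays, 56 in low-fat PFOS replicate 3 and 59 in high-fat PFNA replicate 3. In the other 7 exposed arrays the count was 16 to 27 of 71, and 29.2% to 31.8% of the probes brighter than the median did so across the 12 exposed arrays. Low-fat PFOS replicates 1 and 2 and low-fat PFNA replicates 1 and 3 had 24, 29, 28 and 29 of the 71 subunits below all 3 controls, or 33.8% to 40.8%, against 24.7% to 26.8% of the brighter probes on these arrays. In low-fat PFNA replicate 2 the share below was 26.8%, against 24% of the brighter probes. High-fat PFNA replicates 1 and 2 had 21.1% and 15.5% below, against 27.7% and 24.8%.

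**Figure D3:**
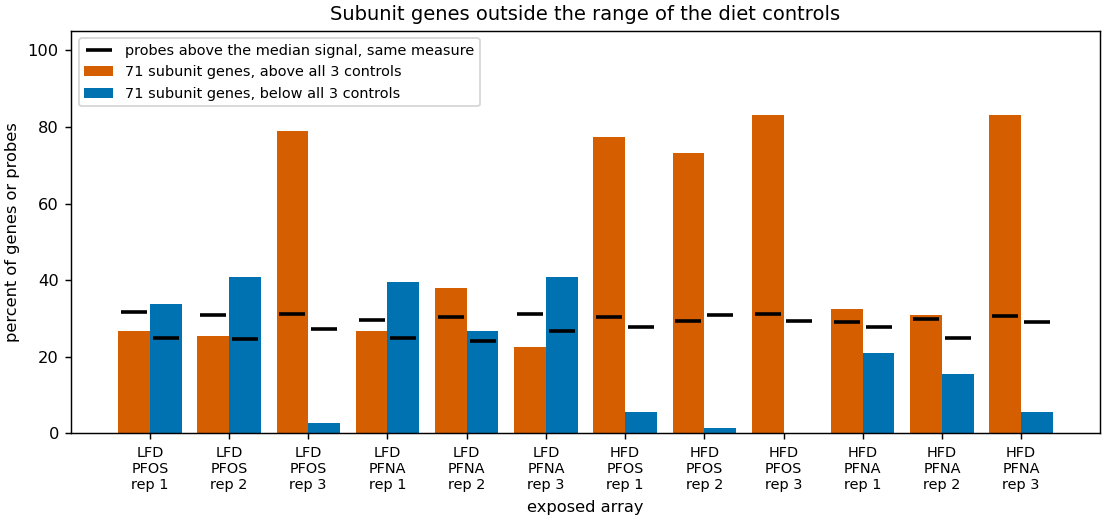
Bars show, for each of the 12 exposed arrays, the percentage of the 71 subunit genes above (orange) or below (blue) all 3 controls of the same diet, and black lines give the same percentage for probes brighter than the median. The orange bars of the 3 high-fat PFOS arrays, low-fat PFOS replicate 3 and high-fat PFNA replicate 3 stand between 73.2% and 83.1%, and those of the other 7 arrays between 22.5% and 38%.

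Targets of PPARA, the nuclear receptor that drives fatty acid oxidation and that perfluorinated acids are known to activate, were highest on the same arrays. The median over 17 measured PPARA targets, on the same scale, was 0.29, 0.43 and 0.54 in high-fat PFOS, 0.40 in low-fat PFOS replicate 3 and 0.32 in high-fat PFNA replicate 3. On the other 13 arrays it lay between -0.28 and -0.02. Between high-fat PFOS and control 5 of the 17 targets were called, all higher, against 0.632% of all probes called higher, with a median log2 difference of 0.60. Acot1, an acyl-CoA thioesterase, rose by a log2 difference of 2.71 (SE 0.369, adjusted p = 0.00218). Targets of CAR, the receptor that induces drug-metabolising enzymes, had a higher list median on each of the 12 exposed arrays than on the 6 controls. Of the 8 targets 5 were called in low-fat PFOS, 5 in low-fat PFNA, 2 in high-fat PFOS and 3 in high-fat PFNA, all higher, against 0.389%, 0.566%, 1.02% and 0.113% of all probes in either direction. Cyp2b13 had a log2 difference of -1.71 (adjusted p = 0.497) in high-fat PFOS. Cyp2b10, the usual readout of CAR, had a log2 signal of 3.81 to 4.58 on the 6 control arrays and 7.26 to 10.63 on the exposed ones. How far either receptor bears on the subunit genes was not tested.

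**Figure D4:**
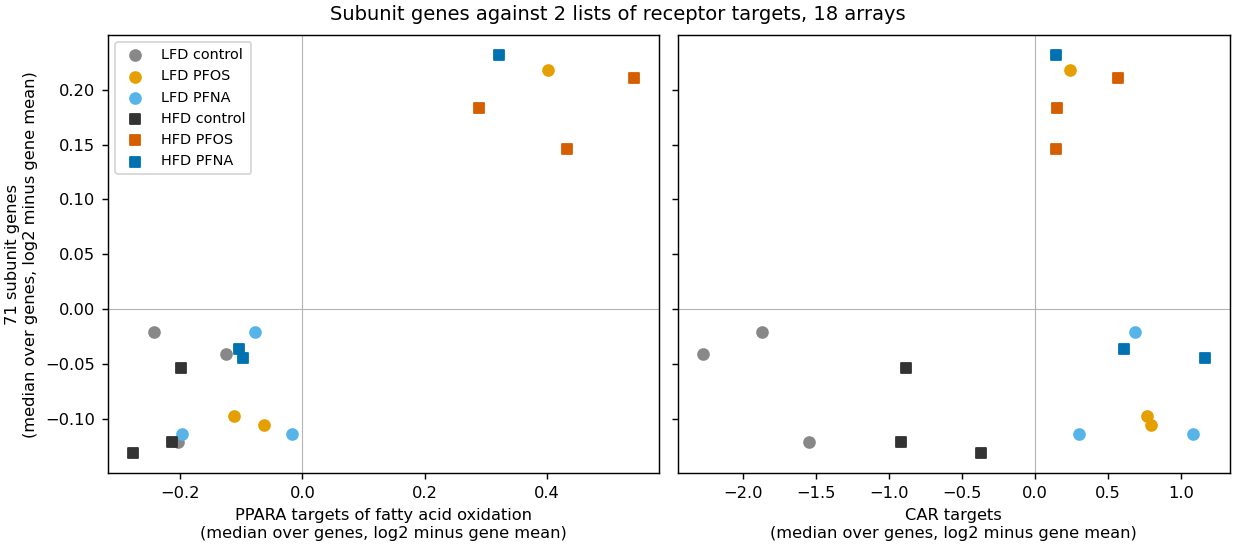
Each point is 1 array; the vertical axis gives the median over the 71 subunits and the horizontal axes the median over 17 PPARA targets (left) and 8 CAR targets (right), all as log2 signal minus the gene's mean over 18 arrays. On the left 5 exposed arrays lie apart at the upper right, with subunit medians of 0.15 to 0.23; on the right the 12 exposed arrays lie to the right of 0 whatever their subunit median. No correlation is given because the arrays fall into clusters.

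On the low-fat diet PFOS left the subunit genes without a call. Of the 89 genes 0 were called, against 0.389% of all probes, while 14 were higher and 0 lower at an unadjusted p under 0.05 (limma; 6.01% and 5.94% of all probes). The median log2 difference was 0.11, and it was -0.0017 without replicate 3. In 15 of the 89 genes all 3 PFOS arrays lay above the controls, against 7.58% of all probes, and in 1 (Atp5j2) they lay below, against 8.12%. Ndufb3, an accessory subunit of complex I, had the largest positive difference, with 6.36, 6.66 and 6.58 in controls and 7.13, 6.84 and 7.48 with PFOS. The arrays did not overlap, and the log2 difference was 0.62 (SE 0.194, adjusted p = 0.206). Ndufa8 had the lowest adjusted p, 0.0610, with a log2 difference of 0.52 (SE 0.114) on its brighter probe. Its second probe gave -0.03. Atp5d had the largest difference in size, -0.73 (SE 0.350), which was -0.25 without control replicate 2 and -0.02 on its second probe.

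On the low-fat diet PFNA gave 2 calls among the 89 genes, both higher, against 0.566% of all probes in either direction and 0.374% higher. At an unadjusted p under 0.05, 11 were higher and 5 lower (limma; 6.66% and 6.21% of all probes). The median log2 difference was 0.02, and the arrays lay wholly above the controls for 18 genes and wholly below for 17, against 10.1% and 9.32% of all probes. Uqcrc1, a core protein of complex III, rose. Its log2 signal was 9.95, 10.23 and 9.97 in low-fat controls and 10.84, 10.80 and 10.76 with PFNA, a log2 difference of 0.75 (SE 0.151, adjusted p = 0.0295), or 1.68-fold. All PFNA arrays lay above all controls and close to each other. The call was lost when any 1 of the 6 arrays was left out, with adjusted p between 0.0536 and 0.111. Ndufa8, a complex I subunit with paired cysteine motifs, also rose on its brighter probe. That probe read 9.06, 9.05 and 9.22 in controls and 9.62, 9.79 and 9.77 with PFNA, a log2 difference of 0.62 (SE 0.114, adjusted p = 0.0204). Its second probe gave -0.32 (SE 0.175, adjusted p = 0.479), so the probes of this gene disagree, and with both averaged the log2 difference was 0.15 (adjusted p = 0.666). Among the 17 genes that lay wholly below were Uqcrb (log2 difference -0.27) of complex III, Cox5a (-0.29) of complex IV and Atp5e (-0.50), the epsilon subunit of ATP synthase, none of them called. Atp5d had the largest difference in size, -1.14 (SE 0.350, adjusted p = 0.144), but -0.07 on its second probe.

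Some genes had another order of arrays than the subunit median. The genes named here were picked out after their values were seen. Uqcrc1 was high on the exposed arrays where the subunit median was low: 10.73 and 10.67 in low-fat PFOS replicates 1 and 2 but 10.23 in replicate 3, and 10.59 and 10.72 in high-fat PFNA replicates 1 and 2 but 10.20 in replicate 3. In high-fat PFOS it read 10.24, 10.06 and 10.06, close to the high-fat controls at 9.94, 10.01 and 10.05. Its log2 difference from the diet control was 0.49 in low-fat PFOS, 0.12 in high-fat PFOS and 0.50 in high-fat PFNA, none of them called. Ndufv3, an accessory complex I subunit, had log2 differences of 0.38, 0.53, 0.21 and 0.51 in low-fat PFOS, low-fat PFNA, high-fat PFOS and high-fat PFNA. For Sdhc the same 4 values were 0.43, 0.48, 0.20 and 0.46, and for Cox6a1, the liver form of its subunit, 0.22, 0.35, 0.03 and 0.28. In complex I, Ndufa10 was higher on every exposed array than on every control, at 10.5 to 10.73 against 10.07 to 10.28. The same held for Ndufa9, at 9.4 to 9.59 against 9.24 to 9.31. It also held for the brighter Ndufa8 probe, at 9.47 to 9.79 against 9.05 to 9.31. The share of all probes with this order is not given.

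**Figure D5:**
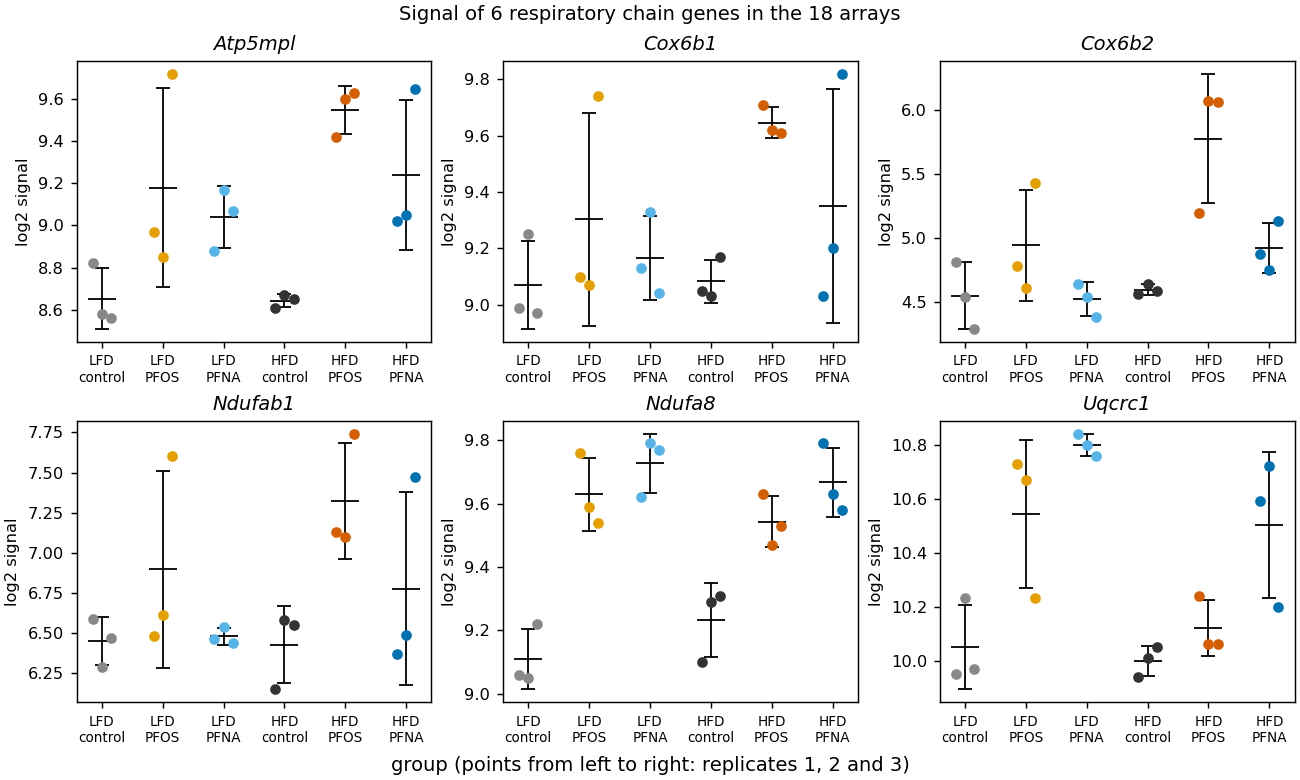
The log2 signal (vertical axis, a separate scale per panel) of 6 genes is shown for all 18 arrays by group (horizontal axis); points are arrays, and bars give the mean and SD of 3. In Atp5mpl, Cox6b1 and Ndufab1 the 3 high-fat PFOS arrays, low-fat PFOS replicate 3 and high-fat PFNA replicate 3 exceed all 6 controls, whereas Uqcrc1 is highest in low-fat PFNA, at 10.76 to 10.84.

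PFNA on the high-fat diet gave 0 calls among the 89 genes, against 0.113% of all probes, with 12 higher and 2 lower at an unadjusted p under 0.05 (limma; 4.92% and 4.86% of all probes). The median log2 difference was 0.15 with all arrays and 0.04 without replicate 3. In 18 genes the PFNA arrays lay wholly above the controls and in 3 wholly below, against 6.83% and 6.89% of all probes. Atp5mpl had the largest difference: 9.02, 9.05 and 9.65 against 8.61, 8.67 and 8.65 in controls, or 0.60 on the log2 scale (SE 0.199, adjusted p = 0.307). It was thus above its controls on all 3 arrays, and most so on replicate 3, without which the log2 difference was 0.39. Ndufs5, a small complex I subunit, had the largest negative difference, -0.56 (SE 0.157, adjusted p = 0.206), on a probe whose mean signal was below the median of all probes.

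The high-fat diet by itself left these genes close to the low-fat controls. Of the 89 genes 0 were called, against 0.0029% of all probes, and 1 was higher and 0 lower at an unadjusted p under 0.05 (limma; 3.21% and 3.24% of all probes). The median log2 difference was -0.01, and complex medians lay between -0.05 and 0.01. The largest differences were -0.54 (SE 0.350) for Atp5d, which was -0.06 without low-fat control replicate 2 and -0.12 on its second probe, and 0.39 (SE 0.138, adjusted p = 0.684) for the assembly factor Ndufaf2. For Uqcrc1 the 95% interval of the diet difference was -0.37 to 0.27 and for Cox6b1 -0.39 to 0.42 on the log2 scale.

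The compounds were also compared directly, with 0 calls among the 89 genes on either diet. On the low-fat diet 0% of all probes were called, 0 genes were higher and 2 lower with PFNA at an unadjusted p under 0.05 (2.1% and 1.82% of all probes), and the median log2 difference of PFNA minus PFOS was -0.09, or 0.01 without PFOS replicate 3. The largest differences there were those of Cox6b2 (-0.42, 95% interval -0.90 to 0.06) and Ndufab1 (-0.42, -1.02 to 0.19). Without PFOS replicate 3 they were -0.18 and -0.07, and the 2 genes at an unadjusted p under 0.05 became 0. On the high-fat diet 0.0029% of all probes were called, 3 genes were higher and 8 lower at an unadjusted p under 0.05 (3.49% and 3.76% of all probes), and the median was -0.12, or -0.21 without PFNA replicate 3. The 11 genes at an unadjusted p under 0.05 became 28 without PFNA replicate 3 and 2 without PFNA replicate 1. For these fits the share of all probes is not given, so the 28 cannot be set against it. In 11 of the 89 genes the PFNA arrays lay wholly below the PFOS arrays and in 1 (Sdhc) wholly above, against 5.14% and 5.13% of all probes. Cox6b2 read 4.87, 4.75 and 5.13 with PFNA against 5.19, 6.07 and 6.06 with PFOS, a log2 difference of -0.86 (95% interval -1.34 to -0.38, adjusted p = 0.646). Ndufab1 followed with -0.55 (-1.15 to 0.06), and Uqcrc1 went the other way, 0.38 higher with PFNA (0.07 to 0.70, adjusted p = 0.654). Leaving out the 2 arrays that stood apart gave 6 calls, against 1.48% of all probes. PFNA replicate 3 stood apart by its closeness to the PFOS arrays, so that count is no test of PFNA against PFOS.

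Whether the diet altered the response was tested as an interaction, and 0 of the 89 genes were called for PFOS or for PFNA, as were 0% of all probes. At an unadjusted p under 0.05 there were 3 higher and 1 lower for PFOS (limma; 3.1% and 3.26% of all probes) and 2 higher and 2 lower for PFNA (2.45% and 2.73%). The 4 genes for PFOS became 25 without low-fat PFOS replicate 3 and 1 without replicate 2, and the 4 for PFNA became 0 without low-fat PFNA replicate 3. The share of all probes in these fits is not given, so the 25 cannot be set against it. Without both arrays that stood apart, 0.241% of all probes and 0 of the 89 genes were called for the PFOS interaction. The PFOS difference on the high-fat diet minus that on the low-fat diet was 0.79 for Cox6b2 (SE 0.323, adjusted p = 0.759) and -0.67 for Ndufa4l2 (SE 0.239, adjusted p = 0.759). The pseudogene Uqcrh-ps1 had a value of 0.68. For PFNA the largest interactions were 0.76 for Atp5d, which was 0.28 without low-fat control replicate 2 and 0.23 on its second probe, and -0.70 for Cox8b. The median interaction over the 89 genes was 0.15 for either compound; without low-fat PFOS replicate 3 it was 0.26 for PFOS, and without high-fat PFNA replicate 3 it was 0.04 for PFNA. In the test of any difference between the 6 groups (moderated F in limma), 3 of 89 genes were called, against 0.96% of all probes: Ndufa8 (adjusted p = 0.0262), Uqcrc1 (0.0310) and Cox6b2 (0.0404). At an unadjusted p under 0.05 there were 25, against 14.1% of all probes.

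Of the 8 isoforms known from other tissues or low oxygen, 1 was called in high-fat PFOS, Cox6b2, against 1.02% of all probes. The median log2 difference of the 8 was -0.06. Cox4i2 (low oxygen and lung), Cox6a2, Cox7a1 and Cox8b (heart and muscle) and Cox7b2 and Cox8c (testis) lay between -0.22 and 0.01 there, all with overlapping arrays. The liver partners of these isoforms, Cox4i1 (0.35), Cox7a2 (0.41) and Cox7b (0.45), had higher log2 values in high-fat PFOS without overlap, while Cox6a1 (0.03) and Cox8a (0.06) overlapped the controls. Ndufa4l2, the low-oxygen paralogue of Ndufa4, was the 1 gene of the 89 that lay wholly below, against 8.68% of all probes. It read 5.07, 4.61 and 4.98 in high-fat controls and 4.45, 4.31 and 4.23 with PFOS, a log2 difference of -0.56 (SE 0.169, adjusted p = 0.126). Its PFOS values lay below 4.476, the median of all probe means. The muscle isoform Cox8b had its highest log2 signal, 3.81, in low-fat PFNA replicate 3, where the skeletal muscle marker Acta1 was 8.12 against 5.01 to 5.62 on the other 17 arrays. The summed signal of 6 muscle markers was 8.93 on that array on the log2 scale and at most 7.25 on the others; its part in the Cox8b value was not tested. Replicate 1 of the group read 3.77 for Cox8b, and every Cox8b value lay below 4.476 as well.

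The 8 complex I assembly factors had differences in the range of the subunits. In high-fat PFOS all 8 had a positive difference, with a median of 0.25 on the log2 scale and 5 of 8 wholly above the controls, where 47.9% of all probes were positive and 9.71% wholly above. Ndufaf7, a methyltransferase that modifies a complex I subunit, was the largest, with 6.84, 7.01 and 6.93 in controls and 7.34, 7.47 and 7.52 with PFOS. This log2 difference of 0.52 (SE 0.143, adjusted p = 0.0889) was not called, and Ndufaf2 was the smallest, at 0.07.

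Genes of mitochondrial energy metabolism were also read from lists by function. The list of assembly factors may repeat complex I assembly factors described above, so its counts are not independent of theirs. In high-fat PFOS their counts stand beside 1.02% of all probes called, and 7.12% higher and 6.42% lower at an unadjusted p under 0.05; in low-fat PFNA and low-fat PFOS 0.566% and 0.389% of all probes were called. Of 48 measured assembly factors of the complexes, 0 were called in high-fat PFOS and 11 were higher and 0 lower at an unadjusted p under 0.05 (limma), with a median log2 difference of 0.16. In low-fat PFNA 2 of the 48 rose: Cox18, which inserts a complex IV core subunit, by 0.70, and Uqcc3, a complex III assembly factor, by 0.86. Among 16 electron carriers and coenzyme Q genes 1 was called in high-fat PFOS, with a median of 0.30. Cytochrome c itself (Cycs) read 10.22, 10.17 and 10.51 in high-fat controls and 10.96, 11 and 10.93 with PFOS, without overlap, and 11.09 and 11.11 on the arrays that stood apart. The called gene, Coq4, which is needed for coenzyme Q synthesis, read 7.32, 7.41 and 7.86 in controls and 8.56, 8.53 and 8.62 with PFOS, a log2 difference of 1.04 (SE 0.172, adjusted p = 0.00935). The PFOS arrays lay well above every control. Of 17 genes of the tricarboxylic acid cycle 2 were called in high-fat PFOS, with a median of 0.35. Mdh2, malate dehydrogenase, read 9.88, 9.80 and 9.81 against 10.52, 10.57 and 10.70 (log2 difference 0.77, SE 0.113, adjusted p = 0.00472), and Idh3b, of NAD-linked isocitrate dehydrogenase, rose by 0.46 (adjusted p = 0.0461). In low-fat PFOS Mdh2 was the 1 of 17 called, higher by 0.60 (adjusted p = 0.0326).

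Of 17 regulators of mitochondrial genes 0 were called in high-fat PFOS, where 3 were higher and 2 lower at an unadjusted p under 0.05 (limma; 7.12% and 6.42% of all probes). For the regulators whose motifs were searched, the log2 difference was 0.14 for Nrf1, 0.40 for Gabpa (adjusted p = 0.0984) and 0.02 for Esrra, the gene of ERRA. Ppargc1b, a coactivator of the PGC-1 family, had the largest difference of the list, 0.50 (SE 0.188, adjusted p = 0.227). Ppargc1a, which encodes PGC-1 alpha, fell in low-fat PFNA. It read 7.64, 7.88 and 8.10 in low-fat controls and 6.40, 6.99 and 6.93 with PFNA, a log2 difference of -1.10 (adjusted p = 0.0163). In low-fat PFOS it was 7.09, 7.40 and 6.68, below every control as well, with a log2 difference of -0.82 (adjusted p = 0.0844). Of 8 genes for uncoupling and nucleotide exchange 0 were called in high-fat PFOS, with 2 higher and 1 lower at an unadjusted p under 0.05. Ucp3, a mitochondrial carrier known as a PPARA target, had the largest difference of them: 3.82, 3.33 and 3.93 in controls and 6.79, 5.87 and 6.28 with PFOS, a log2 difference of 2.62 (SE 0.699, adjusted p = 0.0787). It was also high in low-fat PFOS replicate 3 (6.45) and high-fat PFNA replicate 3 (6.54), and between 3.33 and 4.18 on the other 13 arrays. The 13 protein genes of mitochondrial DNA are not analysed here.

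Markers of other liver cells were read beside these results. In high-fat PFOS 0 of 8 endothelial, 0 of 8 macrophage, 0 of 8 stellate and 0 of 7 hepatocyte markers were called (limma), against 1.02% of all probes. At an unadjusted p under 0.05 the counts were 0, 0, 2 lower and 2 lower, against 7.12% higher and 6.42% lower of all probes. All 7 hepatocyte markers had a negative log2 difference, from -0.60 for Hnf4a (adjusted p = 0.103) to -0.04. The summed log2 signal of the 8 endothelial markers was 11.15 to 11.71 in high-fat controls and 11.30 to 11.71 with PFOS, that of the macrophage markers 10.05 to 11.16 and 10.61 to 11, and that of the stellate markers 11.19 to 11.91 and 11.02 to 11.18. In low-fat PFNA 0 of 8 endothelial and 0 of 8 macrophage markers were called, but 8 and 5 of them were higher at an unadjusted p under 0.05, against 6.66% of all probes. Their summed log2 signals there were 11.91 to 11.94 and 11.12 to 11.39, against 11.09 to 11.60 and 10.30 to 10.96 in low-fat controls. In low-fat PFOS 0 of either list were called, and 4 of 8 endothelial and 3 of 8 macrophage markers were higher at an unadjusted p under 0.05, against 6.01% of all probes, with median log2 differences of 0.37 and 0.57. Their summed log2 signals were 11.59 to 11.99 and 10.84 to 11.53. The part of cell makeup in the differences was not tested.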

How the data were processed

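The authors deposited log2 signals of 34472 probes on 18 arrays; that the scale is log2 was read from the values, as the labels do not name the base. The submitters' processing notes name Transcriptome Analysis Console. How background was corrected and signals were normalized and summarized is not given in the sources used here, and no scan batch is known, so compression of low or high signals by those steps could not be checked. Of the probes 23521 named 1 gene, 1814 several and 9137 none; a probe that named several genes stood for no gene.

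A mean per group was fitted to all 18 arrays with limma 3.58.1 in R 4.3.3 (12 residual degrees of freedom), without a filter on dim probes. The 9 comparisons and the moderated F test were adjusted by Benjamini-Hochberg over all probes, and the code was tested on simulated data. Genes and lists were chosen with earlier results of these data known. The text names called genes (up to 6 per direction), the 2 largest differences where none was called, and the largest and smallest difference by complex; other genes were named for their role or after their values were seen. Replicate numbers were not used as a pairing. Promoters came from RefSeq tables (GRCm38.p6) and were searched on both strands; motifs of 10 or more bases are given by name. No array column was left unassigned.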

Additional observations from a re-analysis of the deposited data

How the results depend on the processing

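The counts of called genes depended on the processing more than the differences did; none of the recomputed results changed sign as a called value. In high-fat PFOS against control the count was 2, and it was 4 with arrays centred on their medians, 7 with probes above the median signal only, 5 with trended robust variances, 1 in the compared groups only, 1 among the subunits of the 5 complexes only, and 14 without low-fat PFOS replicate 3 and high-fat PFNA replicate 3. In low-fat PFOS it was 0, against 1 with centring, 1 with brighter probes, 1 with trended robust variances and 2 without those 2 arrays. In low-fat PFNA it was 2, against 4 with brighter probes, 1 with the mean of a gene's probes and 0 in the compared groups only. In high-fat PFNA it was 0, against 1 with trended robust variances and 1 without the 2 arrays, and for PFNA against PFOS on the high-fat diet 0 against 6 without them, a count that is no test, since high-fat PFNA replicate 3 stood apart by its closeness to the PFOS arrays. For the F test it was 3, against 5 with centring, 7 with brighter probes, 5 with trended robust variances and 19 without the 2 arrays. Without those 2 arrays 2.93% of all probes were called in high-fat PFOS, 1.32% in low-fat PFOS and 0.429% in high-fat PFNA. The share was 1.48% for PFNA against PFOS on the high-fat diet and 4.89% in the F test. Shares of all probes under the other settings are not given.

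Without those 2 arrays the median log2 difference was -0.0017 in low-fat PFOS, 0.0383 in high-fat PFNA, 0.0083 for PFNA against PFOS on the low-fat diet, 0.255 for the PFOS interaction and 0.0417 for the PFNA interaction. Arrays were also left out 1 at a time, for each comparison only those of its own groups. This gave counts of 0 to 1 in high-fat PFOS and in low-fat PFNA, 0 to 7 for the F test and 0 in every other comparison. Arrays of other groups enter a comparison through the shared estimate of the spread, and leaving them out singly is not part of these ranges. The medians then ranged from -0.0467 to 0.0183 for diet alone, -0.0017 to 0.15 in low-fat PFOS, -0.0183 to 0.025 in low-fat PFNA, 0.2267 to 0.2567 in high-fat PFOS and 0.0383 to 0.2017 in high-fat PFNA. For PFNA against PFOS they ranged from -0.1433 to 0.0083 on the low-fat diet and -0.21 to -0.08 on the high-fat diet, and for the interactions from 0.1017 to 0.255 (PFOS) and 0.0417 to 0.1867 (PFNA). Which property of the arrays sets these changes was not tested.

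With the replicate number as a block the counts were 2 in low-fat PFNA, 2 in high-fat PFOS, 2 in the F test and 0 elsewhere. Same-numbered arrays deviated together, at a correlation above 0.1, in 3 of 45 pairs of same-numbered arrays, so the numbers were not used as a pairing. The highest correlation, 0.42, was that of low-fat PFOS replicate 3 with high-fat PFNA replicate 3, the 2 arrays that stood apart. With 3 arrays per group these correlations cannot exclude a pairing. Signal near background limits 9 of the 89 genes, whose mean was not above the median of all probes.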

Other observations

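Some subunits were read by probes that named several genes and so stood for no gene in the counts above. Of 10 such probes 0 were called between high-fat PFOS and high-fat control in limma. The probe for Uqcr10 and Gm6293 had a log2 difference of 0.45 (adjusted p = 0.255), that for Ndufb2 and Adck2 one of 0.40 (adjusted p = 0.425), and that for Ndufs5 and its pseudogene one of 0.44 (adjusted p = 0.350). The probe that named Ndufs5 alone was dim and gave -0.10, so the reading of this gene depended on the probe. The probe for Uqcrb and Gm10767 gave -0.12, while the probe that named Uqcrb alone gave 0.33.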
